A study of Mus musculus with 14 samples.

Results

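Ly6d and 5 of its relatives in the Ly6 family of surface proteins (Ly6a, Ly6e, Ly6k, Ly6g6c and Ly6h) were followed in the aorta and in CD115+ blood cells of mice without the lymphotoxin beta receptor. A member was measured where the platform annotation gave a probe set, the group of oligonucleotides that reads 1 transcript, its symbol and no other. That held for 5 of the 6, with 6 probe sets in all, among 22180 genes. No probe set was listed for Ly6a alone, so it has no value here. Ly6d was chosen for its large and consistent fall in the double-deficient aortas. The aorta values of the members are therefore given as a description, without a test.

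Microarrays were run on RNA from male mice 12 weeks old that had eaten a Western type diet since 8 weeks of age, for 4 weeks. All of them lacked ApoE, so every comparison is between 2 kinds of hyperlipidaemic mice and none with a wild-type mouse. The group labelled ApoE/LTbR-double deficient also lacked the lymphotoxin beta receptor (gene Ltbr), and its controls, labelled ApoE deficient, were littermates. Aorta with its perivascular fat gave 4 double-deficient and 4 ApoE-deficient arrays. Cells bearing CD115, a receptor of blood monocytes, were taken from peripheral blood with magnetic beads after a Ficoll step and gave 3 arrays of each genotype. ApoE-deficient CD115+ replicates 3 and 4 were pools of 2 littermate samples each, and all other arrays held a single sample. Neither the construction of the deficiency nor any link between the aorta and blood samples is described in the labels.

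Ly6 proteins are small and rich in cysteines, fold into a three-fingered domain, and are mostly held on the cell surface by a lipid anchor. Many of their genes lie side by side on mouse chromosome 15, and several serve as surface labels of blood cells: Ly6a is Sca-1 of stem cells, Ly6c2 encodes Ly6C of inflammatory monocytes, and Ly6g labels neutrophils. Ly6d, first described as ThB on B cells and thymocytes, marks lymphoid progenitors turning to the B lineage and is also made by stratified epithelia. The lymphotoxin beta receptor is used by stromal and myeloid cells to receive signals from lymphocytes, and lymph nodes do not form without it.

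The authors deposited log signals, read here as log2, from which, within a tissue, each probe set's median over the arrays had been taken away. Levels therefore cannot be compared between genes or between tissues, and a value of 0 is the middle of the arrays, not absence. Differences are double-deficient minus ApoE-deficient. In these whole-tissue and bulk-cell samples, fewer cells of a type and less RNA per cell cannot be told apart. Array medians lay close to 0 on all 14 arrays. Ltbr itself averaged -0.97 ± 0.34 in double-deficient and 0.68 ± 0.16 in ApoE-deficient aortas (SD, n = 4 each). In CD115+ cells it averaged -0.38 ± 0.28 and 0.34 ± 0.25 (SD, n = 3 each). In both tissues the 2 groups did not overlap, as for 4.3% of all genes in aorta and 9.16% in CD115+ cells. In CD115+ cells they lay close, at -0.07 in double-deficient replicate 1 and 0.07 in ApoE-deficient replicate 3. By limma over all genes (Benjamini-Hochberg adjusted) Ltbr had an adjusted p of 0.0679 in aorta and 0.976 in CD115+ cells.

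A coarse reading of level came from the rounding of the values, on the assumption that they were made by subtraction of 32-bit log2 numbers, whose step is coarser from 8 to 16 than below 8. Ly6e lay on the coarse step on 8 of 8 aorta and 6 of 6 CD115+ arrays, as 10.2% and 6.78% of all probe sets did. Ly6d did so on 6 of 8 aorta and 5 of 6 CD115+ arrays. Ly6k, Ly6h and Ly6g6c left that step on at least 2 arrays of each tissue. Under this assumption these genes, and Ly6d too, were below 8 on some arrays. A value below 8 can also fall on the coarse step, so partial counts do not give a level. The same reading put 6 of 10 smooth muscle and 7 of 8 adipocyte markers at 8 or above on all aorta arrays. In CD115+ cells it did so for 4 of 9 monocyte and macrophage markers, but also for 6 of 8 adipocyte and 4 of 10 smooth muscle markers, which are not markers of blood cells. What this means for the members was not tested.

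Ly6d, the lymphoid surface protein, was lower in the aortas without the receptor, by 11.7-fold. Its values were -1.57, -1.32, -1.99 and -2.43 in double-deficient replicates 1 to 4. They were 2.21, 1.95, 1.38 and 1.32 in ApoE-deficient replicates 1 to 4. All 4 double-deficient arrays were low and all 4 ApoE-deficient arrays high, with nothing between. The group means were -1.83 ± 0.49 and 1.71 ± 0.44 (SD, n = 4 each), a difference of -3.54 (SE 0.29).

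The empty stretch between the groups was 2.63 wide on the log2 scale. Among genes lower in the double-deficient aortas 0 had a wider one, which restates the choice of Ly6d by these same values. Glycam1, a mucin-like ligand made by the high endothelial venules of lymph nodes, was the 1 gene with a larger mean fall (-4.06, SE 0.69). By limma over all genes (Benjamini-Hochberg adjusted), 0.00451% of genes, that is 1 of 22180, were called in aorta, and Ly6d was that gene. Since this contrast chose it, the call is no support. Leaving out any 1 array kept the Ly6d difference between -3.71 and -3.34, which its choice for a consistent fall made likely beforehand. Quantile normalization of the arrays gave -3.16.

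**Figure D1:**
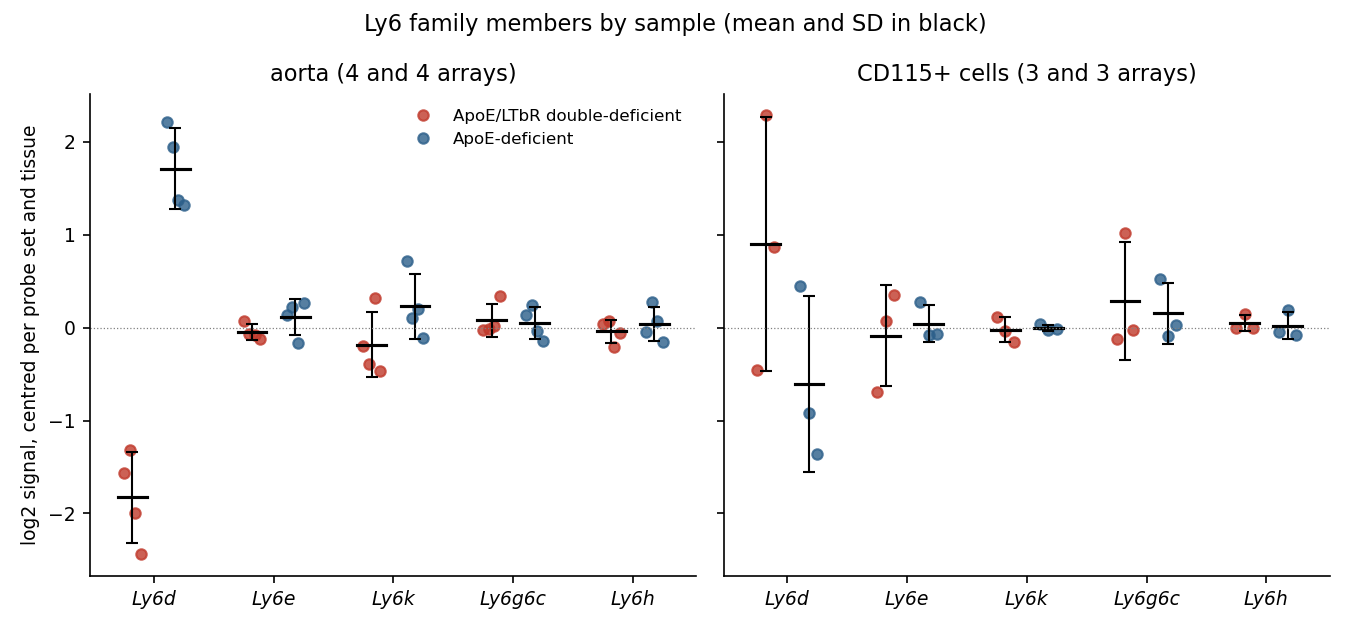
Log2 signal of the 5 measured members on every array, centred per probe set and tissue (vertical axis), for double-deficient (red) and ApoE-deficient (blue) samples; black bars are the mean and SD. In aorta Ly6d separates into values of -1.32 and below and of 1.32 and above, while Ly6e, Ly6k, Ly6g6c and Ly6h overlap between genotypes; in CD115+ cells Ly6d spreads from -1.36 to 2.29 with the genotypes overlapping.

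Ly6d was among the more even genes of large fall over the ApoE-deficient aortas, but not over the double-deficient ones. Across the 79 genes whose aorta difference was below -1.5, the SD among ApoE-deficient arrays had a median of 1.35, against 0.44 for Ly6d. It was smaller than that of Ly6d in 3: Ltbr, the cytotoxic T cell co-receptor Cd8a, and Dntt, which encodes the terminal transferase of developing lymphocytes (the latter named after its value was seen). Of the 79 genes 29, Ly6d among them, had groups that did not overlap, where 2.11% of all genes were lower without overlap. Among the double-deficient aortas the SD of Ly6d was 0.49, against a median of 0.32, and 53 of the 79 had a smaller one. These 79 were picked by the contrast itself, so the counts describe them and test nothing. Ly6d was chosen for a consistent fall, so its evenness was part of that choice.

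ApoE-deficient replicate 3 had the lowest mean of its group in the lymphocyte marker lists, by a wide or a small margin, though not the lowest Ly6d. B cell markers, 14 of 15 of which had a negative difference (median -1.69), averaged 2.01, 2.08 and 1.28 in ApoE-deficient replicates 1, 2 and 4. In replicate 3 they averaged -0.22, inside the double-deficient range of -0.38 to -0.14. Ly6d in that aorta was 1.38, slightly above its 1.32 in replicate 4. Among the 79 genes of large fall, the median value in replicate 3 was 0.03. For 42 of the 79, Ly6d among them, the value in replicate 3 was above all double-deficient arrays, so this was not particular to Ly6d. A high Ly6d value in replicate 3 also belonged to the consistent fall for which Ly6d was chosen.

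T cell markers had negative differences in 13 of 13 (median -1.38) and averaged 0.00 in replicate 3, against 0.67 to 1.14 in the other ApoE-deficient and -0.87 to -0.21 in the double-deficient aortas. The list of thymocyte and early lymphoid genes was negative in 10 of 11 (median -0.11), at 0.11 in replicate 3, 0.17 to 0.30 in the others and -0.51 to -0.04 in the double-deficient. Plasma cell (9 of 9 negative), plasmacytoid dendritic cell (6 of 8) and natural killer cell (8 of 8) markers were also low in that aorta, at -0.17, 0.09 and -0.09. The other ApoE-deficient means ran from 0.29 to 1.04, 0.49 to 1.39 and 0.32 to 0.71. The double-deficient means ran from -0.47 to 0.08, -0.56 to -0.18 and -0.45 to -0.01, so that replicate 3 lay within that range for plasma and natural killer cell markers and above it for plasmacytoid dendritic cell markers. Across all genes 47.2% had a negative aorta difference, with a median of 0.01. Which of these cells the Ly6d signal came from was not tested.

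Genes of the lymphotoxin receptor pathway, made up of Ltbr itself, its ligands, the adaptors, kinases and NF-kappaB subunits that carry its signal, and the B cell survival factor and its receptor, were negative in 11 of 12 (median -0.36), with 0 past the limma threshold. Their mean was -0.09 in ApoE-deficient replicate 3, 0.50 to 0.70 in the other ApoE-deficient aortas and -0.25 to -0.08 in the double-deficient ones. Markers of lymphoid stroma and high endothelial venules were negative in 6 of 8, a list that also counts Ltbr, whose loss the genotype fixes. Their mean was -0.04 in replicate 3, 0.65 to 0.87 in the other ApoE-deficient aortas and -0.51 to -0.14 in the double-deficient ones. Smooth muscle and endothelial markers had small positive differences in 10 of 10 each, with medians of 0.31 and 0.16. Skeletal muscle markers were negative in 8 of 8 (median -1.33), at -1.41, 1.76, 2.15 and 0.84 in ApoE-deficient replicates 1 to 4 and -1.27, -1.37, -1.12 and 1.30 in double-deficient replicates 1 to 4, so that the genotypes overlapped. Neutrophil markers were negative in 7 of 8 (median -0.32), with means of -0.12 to 1.08 in ApoE-deficient and -0.24 to 0.33 in double-deficient aortas. The part of all these lists in the Ly6d difference was not tested.

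Epithelium is another known source of Ly6d. The 17 measured epithelial markers were negative in 8, with a median difference of 0.03. Their mean was high on 2 arrays, one of each genotype: 0.64 in double-deficient replicate 3 and 0.54 in ApoE-deficient replicate 2, with all others between -0.08 and 0.03. Ly6d on those arrays was -1.99 and 1.95, so that it was low on one and high on the other. The part of epithelium in the Ly6d values was not tested.

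**Figure D2:**
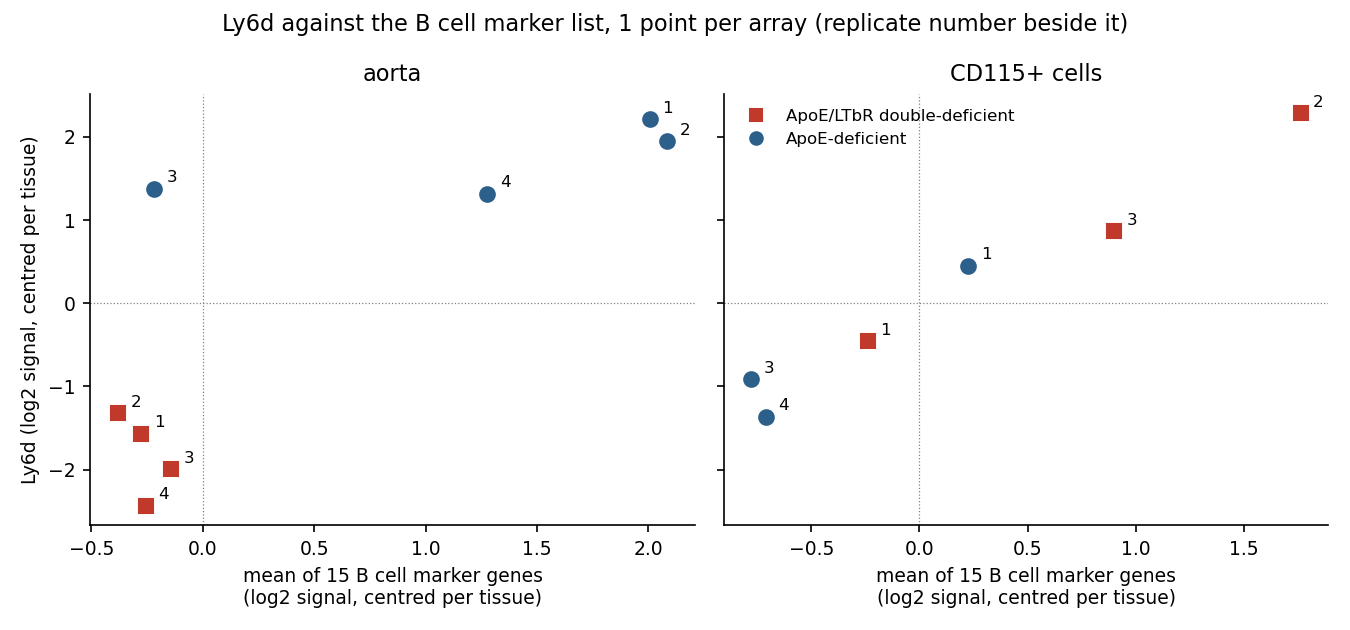
Ly6d (vertical axis, log2 signal centred per tissue) against the mean of 15 B cell marker genes (horizontal axis, same scale), 1 point per array with its replicate number; squares are double-deficient and circles ApoE-deficient. In aorta ApoE-deficient replicate 3 has a B cell mean of -0.22, among the double-deficient arrays, but Ly6d at 1.38; in the 6 CD115+ preparations Ly6d and the B cell mean go together (Pearson's r = 0.98).

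The genes most like Ly6d over the 8 aorta arrays were the T cell co-receptor genes Cd8a (Pearson's r = 0.98) and Cd4 (r = 0.97). Capn3, a calpain protease (r = 0.97), the ribosomal protein genes Rpl10a (r = 0.97) and Rps26 (r = 0.96) and Thumpd3 (r = 0.96) came next. These are the highest of 22179 values and describe the arrays only, since any gene that separates the genotypes scores high. Cd8a was at 0.38 and Cd4 at 0.31 in ApoE-deficient replicate 3, their lowest ApoE-deficient values but above all 4 double-deficient arrays.

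With the group means removed, so that the genotype difference no longer counts, Rpl28, a ribosomal protein gene, was the most like Ly6d (r = 0.99). Crct1, a gene of cornified epithelium, Tmbim7, the mismatch repair gene Msh6, the glycosyltransferase gene C1galt1 and the growth factor gene Pdgfb followed, at r of 0.95 to 0.98. These genes were picked as the highest of 22179 values. Crct1 and Tmbim7 hardly moved over the aorta arrays, from -0.07 to 0.06 and from -0.03 to 0.05. On this measure the median r with Ly6d was 0.65 for T cell markers, 0.43 for B cell markers and 0.60 for thymocyte and early lymphoid genes. It was 0.48 for plasma cell markers, 0.33 for the lymphotoxin pathway list, 0.31 for natural killer cell and 0.30 for platelet markers. The median r was -0.74 for skeletal muscle markers and 0.01 over all genes. All rest on the same 8 arrays.

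In CD115+ cells Ly6d had the higher mean in the double-deficient group, within a spread that covered the difference. It was -0.45, 2.29 and 0.87 in double-deficient replicates 1, 2 and 3. It was 0.45, -0.91 and -1.36 in ApoE-deficient replicates 1, 3 and 4. Double-deficient replicate 1 lay below ApoE-deficient replicate 1, so the groups overlapped. The means were 0.90 ± 1.37 and -0.61 ± 0.95 (SD, n = 3 each). The difference of 1.51 (SE 0.80, 95% interval -0.45 to 3.47) did not pass limma over all genes (adjusted p = 0.976). The exact two-sided permutation test gave p = 0.2, where 3 against 3 cannot go below 0.1.

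Both low ApoE-deficient values came from the pools of 2 littermate samples. Among preparations of single samples the difference was 0.45 (SE 1.19), with 1 ApoE-deficient preparation left, taken to vary like the others. Without double-deficient replicate 2 it was 0.82, and without double-deficient replicate 1 it was 2.19. In the CD115+ comparison 0% of genes were called by limma at an adjusted p under 0.05, and 974 of 22180 (4.39%) had an unadjusted p under 0.05. Whether the genotype difference of Ly6d itself differed between aorta and blood was not tested, because the aorta values had chosen the gene.

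B cell markers moved with Ly6d in these preparations. The B cell list had 15 of 15 positive differences (median 1.41), and its means were -0.24, 1.76 and 0.90 in double-deficient replicates 1 to 3. They were 0.23, -0.78 and -0.71 in ApoE-deficient replicates 1, 3 and 4. Over the 6 preparations Ly6d and the list mean had r = 0.98 (exact permutation p = 0.00278, adjusted p = 0.0236 over 17 lists). Spearman's rho was 0.94 (exact permutation p = 0.0167, adjusted p = 0.0708). Without the 2 preparations farthest from the middle of the list r was 0.95 over 4, and among the 4 single-sample preparations it was 0.98. With so few points other lists also had large r. With 2 left out it was -0.98 for natural killer cell and -0.97 for skeletal muscle markers, but -0.02 for platelet markers. Among single samples it was -0.91 for adipocyte and 0.90 for T cell markers, but 0.11 for monocyte and macrophage markers. The permutations, for the B cell list and those below, moved values over all 6 preparations regardless of genotype or pooling. A shift shared by a genotype or by the pools can therefore enter r and its p, and its part was not tested.

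The T cell list (13 of 13 positive, median 0.36) had r = 0.95 with Ly6d (exact permutation p = 0.00556, adjusted p = 0.0315), and the list of thymocyte and early lymphoid genes r = 0.93 (exact permutation p = 0.00278, adjusted p = 0.0236). By Spearman's rho both relations missed the threshold, as did that of the B cell list (0.94 each, exact permutation p = 0.0167, adjusted p = 0.0708). Plasma cell markers had the same rho, but r = 0.78 (exact permutation p = 0.0778, adjusted p = 0.147). Without 2 preparations r was 0.80 for the T cell list and 0.84 for the thymocyte and early lymphoid list. For monocyte and macrophage markers r was 0.02 (exact permutation p = 0.979).

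Other lists ran with or against Ly6d without passing after adjustment. The lymphotoxin pathway list had r = 0.90 (exact permutation p = 0.0153, adjusted p = 0.0649) and neutrophil markers r = 0.84 (exact permutation p = 0.0347, adjusted p = 0.0944). Adipocyte markers had r = -0.85 (exact permutation p = 0.0361, adjusted p = 0.0944), skeletal muscle markers -0.82 (exact permutation p = 0.0389, adjusted p = 0.0944) and smooth muscle markers -0.78 (exact permutation p = 0.0694, adjusted p = 0.147). By genotype, adipocyte markers were negative in 8 of 8 (median -0.16) and smooth muscle markers in 10 of 10 (median -0.14). Their double-deficient means ran from -0.34 to 0.26 and from -0.27 to 0.28, the ApoE-deficient ones from -0.04 to 0.12 and from -0.003 to 0.13, so the groups overlapped. The single genes most like Ly6d over the 6 preparations were the B cell genes Fcrla and Ms4a1 (CD20), then Fam214a and Zfp398, all at r of 0.99 or above. Double-deficient replicate 2 also had the highest neutrophil (1.53) and platelet (1.51) list means of the 6. The part of these cells in the Ly6d values was not tested.

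Ly6k, a protein of male germ cells needed for sperm function, was read by 2 probe sets that differed in aorta. By their mean it was 0.23 ± 0.35 in ApoE-deficient and -0.18 ± 0.36 in double-deficient aortas (SD, n = 4 each), a difference of -0.41 (SE 0.22). One probe set stayed between -0.06 and 0.21 on all 8 arrays, with a difference of -0.0025.

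The other probe set of Ly6k ran wider. It was -0.51, -0.74, 0.53 and -0.86 in double-deficient replicates 1 to 4, and 1.23, 0.19, 0.47 and -0.19 in ApoE-deficient replicates 1 to 4. Double-deficient replicate 3 reached into the ApoE-deficient range, and the difference was -0.82. The Ly6k value thus rests on 1 of its 2 probe sets. In CD115+ cells both were flat, the gene differing by -0.02 (SE 0.08, 95% interval -0.21 to 0.17, limma adjusted p = 0.992).

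Ly6e, a widely expressed and interferon-inducible member, varied little in aorta. It was 0.07, -0.07, -0.07 and -0.12 in double-deficient replicates 1 to 4 and 0.13, 0.22, -0.17 and 0.26 in ApoE-deficient replicates 1 to 4. The lowest value belonged to ApoE-deficient replicate 3, and the difference was -0.16 (SE 0.10).

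In CD115+ cells Ly6e was -0.70, 0.07 and 0.36 in double-deficient replicates 1, 2 and 3, and 0.27, -0.07 and -0.07 in ApoE-deficient replicates 1, 3 and 4. Its difference of -0.13 (SE 0.28, 95% interval -0.82 to 0.56, limma adjusted p = 0.982) came from double-deficient replicate 1, without which it was 0.17. The interferon response list had negative differences in 14 of 14 measured genes, 0 of them past the limma threshold (median -0.29). Its means were -0.41, -0.15 and -0.25 in double-deficient replicates 1 to 3 and 0.10 to 0.18 in the ApoE-deficient preparations, which did not overlap. Ly6e had its lowest value in double-deficient replicate 1, where the list mean was also lowest, and its highest value in double-deficient replicate 3. The relation of Ly6e to the interferon response was not tested.

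Ly6g6c, whose gene lies on chromosome 17 and not in the chromosome 15 cluster, showed no aorta difference beyond its spread (0.03, SE 0.12). Its values there lay between -0.15 and 0.34. In CD115+ cells it was high on 2 arrays, at 1.01 in double-deficient replicate 2 and 0.53 in ApoE-deficient replicate 1, with the other 4 between -0.12 and 0.03. The same 2 preparations had the highest values of Ly6g, the neutrophil antigen (0.87 and 0.42), and of the neutrophil marker list (1.53 and 0.93). The difference between genotypes was 0.13 (SE 0.34, 95% interval -0.71 to 0.98, limma adjusted p = 0.988), or -0.23 without double-deficient replicate 2. The part of neutrophils in it was not tested.

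Ly6h, a brain-enriched modulator of nicotinic acetylcholine receptors, was level in both tissues. In aorta it ran from -0.21 to 0.07 in double-deficient and from -0.16 to 0.27 in ApoE-deficient samples, a difference of -0.07 (SE 0.11). In CD115+ cells it ran from -0.07 to 0.19 over the 6 arrays and differed by 0.03 (SE 0.09, 95% interval -0.20 to 0.25, limma adjusted p = 0.991). The 5 members thus had 0 calls in CD115+ cells, beside the 0% of all genes. Their groups overlapped there for all 5, where 9.16% of all genes did not overlap (3.93% higher and 5.23% lower). In aorta the groups of 1 of the 5, Ly6d, did not overlap, beside 4.3% of all genes in either direction. Nothing is read from the aorta count, since the fall of Ly6d chose the family.

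The neighbours of Ly6d on the chromosome had smaller aorta differences, which the choice of Ly6d for its large fall made likely beforehand. From Psca to Gpihbp1, 23 protein-coding genes were measured in the order of the GRCm38.p6 gene table, 22 besides Ly6d. Of these 14 had a negative aorta difference, the median was -0.03, and the groups overlapped for all 22, where 4.3% of all genes did not overlap. Lynx1, a nicotinic receptor modulator next to Ly6d on one side, differed by -0.26 (SE 0.25), and Ly6g6g on the other side by 0.05 (SE 0.11). The lowest of the 22 was Cyp11b1, the adrenal steroid 11-beta-hydroxylase, at -1.57 with an SE of 1.31 (named after its value was seen).

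**Figure D3:**
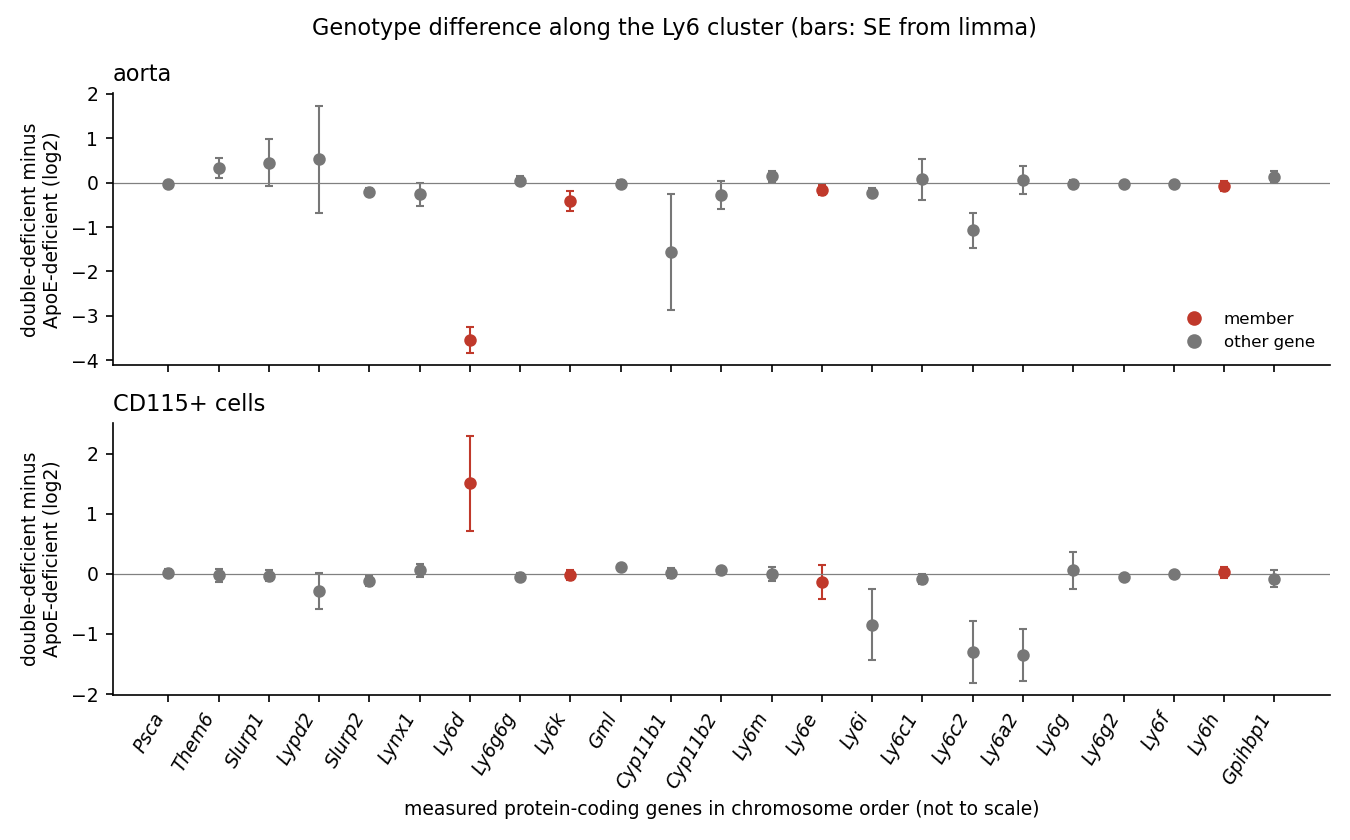
Double-deficient minus ApoE-deficient difference (vertical axis, log2; bars are the limma SE) for 23 measured protein-coding genes in chromosome order from Psca to Gpihbp1 (horizontal axis, evenly spaced), in aorta (top) and CD115+ cells (bottom); members are red. In aorta Ly6d lies at -3.54 and its neighbours Lynx1 and Ly6g6g at -0.26 and 0.05; in CD115+ cells the lowest points are Ly6a2 at -1.35 and Ly6c2 at -1.30.

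The wider family of Ly6 and urokinase receptor-like genes, 38 measured of 42 listed, gave 0 calls in either tissue by limma over all genes, beside the 0.00451% in aorta and 0% in CD115+ cells. At an unadjusted p under 0.05 there were 4 in aorta and 3 in CD115+ cells, beside 7.72% and 4.39% of all genes. In aorta 20 of 38 were negative with a median of -0.01, against 0.01 over all genes, and 33 of 38 differed by less than 0.25 in size. The smallest p in aorta belonged to Plaur, the urokinase receptor, at -0.43 (SE 0.15, limma adjusted p = 0.564). It was followed by Ly6c2 at -1.07 (SE 0.39, limma adjusted p = 0.577), Ly6i at -0.22 (SE 0.09) and Slurp2 at -0.21 (SE 0.09).

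Ly6c2 in aorta was 1.30, -0.28 and 0.53 in ApoE-deficient replicates 2 to 4, higher still in replicate 1, and between -0.69 and 0.11 in the double-deficient aortas, so that replicate 3 again lay among the double-deficient arrays. Ly6d did not share that dip, which its choice for a consistent fall made likely beforehand. On the positive side the smallest p were those of Lypd6b (0.12, SE 0.06), Acrv1, a sperm acrosome protein (0.10, SE 0.06), Ly6g6e (0.13, SE 0.09) and Ly6m (0.15, SE 0.12). Lypd2 ranged over more of the scale than Ly6d, from -1.32 to 3.99, without following genotype: its high arrays were double-deficient replicate 3 (3.99) and ApoE-deficient replicate 2 (3.04), the same as for the epithelial markers.

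In CD115+ cells 23 of 38 family genes were negative with a median of -0.02, where 55.3% of all genes were negative with a median of -0.01. For 5 of the 38 the double-deficient values lay below all ApoE-deficient ones, beside 5.23% of all genes: Ly6a2, Ly6c2, Lypd9, Ly6g6e and Ly6g2. Ly6a2, a near relative of Ly6a, differed by -1.35 (SE 0.44, limma adjusted p = 0.976) and Ly6c2, the monocyte antigen, by -1.30 (SE 0.51, limma adjusted p = 0.976). Lypd9 differed by -0.14 (SE 0.06), Ly6g6e by -0.14 (SE 0.06) and Ly6g2 by -0.06 (SE 0.05). On the positive side the smallest p were those of Ly6g6f (0.11, SE 0.10), Ly6g5c (0.05, SE 0.09), Lynx1 (0.06, SE 0.10) and Ly6g5b (0.03, SE 0.05).

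Ly6c2 and Ly6a2 had their lowest values on the same preparation. In double-deficient replicate 1 they were at -2.08 and -1.63, and Ly6e, Ly6i and Plaur were also low there, at -0.70, -1.33 and -0.85. Ly6d on that preparation was -0.45. These genes belong to a cluster of close copies, and how far single probe sets keep copies such as Ly6c1 and Ly6c2 or Ly6a and Ly6a2 apart is uncertain.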

How the data were processed

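The authors deposited 1 table of log values, read here as log2, for 33793 probe sets on 14 arrays (log base, array normalization, probe summary: not given in the sources used here). Per the labels' protocols, 1 ng of RNA was amplified and labelled with biotin. The median of every probe set over the arrays of each tissue was 0 within 1e-06, so values had been centred per tissue. Probe sets with 1 symbol in the platform annotation (23521) were averaged per gene, and the other 10272 left out. No filter on level was possible. Within a tissue, genotypes were compared by R 4.3.3 and limma 3.58.1 (lmFit, eBayes; Benjamini-Hochberg over 22180 genes, threshold 0.05), after a check on simulated data; single values used exact permutation tests over samples. The number of arrays limits precision. Nothing in the labels says that each sample is a different animal, so p-values measure the spread between these samples.

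Members and lists were chosen with earlier results of these data known. Named were all members, Ltbr, family genes of smallest p (up to 4 per tissue and direction), the genes most like Ly6d by Pearson's r (6, 6 and 4) and up to 3 markers per list; unnamed gene models, small RNAs, pseudogenes and chemosensory receptors were left out. Glycam1, Dntt, Ly6g, Ly6g2, Ly6g6g, Lypd2 and Cyp11b1 were named after their values were seen. Gene order came from the GRCm38.p6 gene table. The sequence tables at hand held no protein, and a promoter for 1 of the 6 members, Ly6g6c, with no match to the 5 motifs searched (CCCNNGGGA, ATTTGCAT, GGGNNTTCC, GAAANNGAA and TTCNNNGAA, both strands; 6.56%, 1.74%, 5.82%, 8.56% and 8.30% of 32851 promoters hold them).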

Additional observations from a re-analysis of the deposited data

Results flagged for a closer look

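A sample far from the other 3 of its group was found in 5 of 62 groups of 4 aortas, where chance gives about 1 in 20. Ly6g6c was 0.34 in double-deficient replicate 4, with the others between -0.02 and 0.02. Ly6g was 0.25 in ApoE-deficient replicate 1, with the others between -0.01 and 0.01. The epithelial marker mean was 0.64 in double-deficient replicate 3, with the others between -0.08 and 0.03. It was 0.54 in ApoE-deficient replicate 2, with the others between -0.04 and 0.02. The skeletal muscle marker mean was 1.30 in double-deficient replicate 4, with the others between -1.37 and -1.12. No cause was tested for these values.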

How the results depend on the processing

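The Ly6d difference in aorta kept its size under all 14 alternatives (from -3.71 to -3.16). Its choice for a consistent fall on these same arrays made this likely beforehand, so it is no support. The replicate block, robust eBayes and the probe set of largest SD gave -3.54 and could not change this difference. The count of genes called in aorta was 1, but 0 with the probe set of largest SD, with array weights and with robust eBayes. It ran from 0 to 74 when 1 array was left out, with 69 lower and 5 higher without ApoE-deficient replicate 3; why that array matters was not tested. Ly6k in aorta was -0.82 with the probe set of largest SD. In CD115+ cells 0 genes were called in all 14 fits, and Ly6d stayed positive, from 0.82 to 2.19 without 1 array, 1.02 after quantile normalization and 0.45 among single-sample preparations, an alternative chosen after seeing the data. The sign of smaller CD115+ differences turned. Ly6e was 0.033 with array weights; Ly6g6c was -0.067 after quantile normalization, -0.24 among single-sample preparations and -0.29 with a replicate block; Ly6h was -0.071 with a replicate block. Without 1 array, Ly6e ran from -0.35 to 0.17, Ly6g6c from -0.23 to 0.34, Ly6h from -0.023 to 0.11 and Ly6k from -0.089 to 0.046. Over all genes, deviations of aortas with the same replicate number had correlations from -0.15 to 0.17. For the CD115+ preparations, which share numbers 1 and 3, these were -0.47 and -0.29. Such correlations cannot settle whether samples were paired. With the replicate block Ly6d differed by -3.54 in aorta (SE 0.12, beside 0.29 without the block) and by 0.44 in CD115+ cells (SE 0.84). The counts of calls with the block were 1 and 0. Centring removed level, so background cannot be told from low signal.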
